A study of Mus musculus with 6 samples.

Results

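The genes described here are 39 markers and regulators of the cells that line blood vessels and the heart chambers. They were picked by gene symbol, each having to match a gene name of the deposited table exactly. All 39 were found among the 13809 genes of the table, and all 39 passed the filter on low counts. RNA-seq was done on heart tissue of mouse embryos at E18.5, shortly before birth, with 3 libraries from wild-type (WT) and 3 from *Pkm1*-KO embryos. The study asked what the loss of pyruvate kinase M1, a glycolytic enzyme, changed in the transcripts of the perinatal heart. The KO allele is a small CRISPR/Cas9 deletion in the exon of *Pkm* that only the *Pkm1* transcript uses, and KO embryos were homozygous for it. The allele is in the germline, so every cell of the embryo carried it, endothelial cells and cardiomyocytes included, and no cell type was sorted. The tissue is given as heart in the sample labels and as ventricle in the study's text. The labels number 3 replicates per genotype, which the study describes as biological replicates, and the p-values measure the spread between these libraries.

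Endothelial cells form the inner layer of all vessels, and the endocardium is the endothelium of the heart chambers, from which the valves and part of the coronary vessels grow. VEGF and angiopoietins act on receptor tyrosine kinases of the endothelium, and VE-cadherin junctions hold the layer closed. ETS and SoxF transcription factors keep endothelial genes on, and apelin, adrenomedullin and sphingosine 1-phosphate act on endothelial G protein-coupled receptors.

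The defining endothelial markers *Pecam1*, *Cdh5*, *Tie1* and *Emcn* are themselves among the genes described here. They were counted in all 6 libraries, which is no test of endothelial identity in unsorted heart tissue. Their summed level was 677 to 695 CPM (counts scaled to library size with edgeR's TMM factors) in WT and 605 to 615 CPM in KO hearts. Library totals ran from 15567624 to 19875546 counts, so that 3 counts, taken as the limit of detection, were 0.153 to 0.197 CPM. *Pkm* fell (log2 fold change -1.28), and the counts do not separate its isoforms. The 4 Y-linked genes examined were counted in all WT libraries and in no KO library, while *Xist*, at a mean of 5.26 CPM in WT, reached 2285 CPM in KO hearts. Genotype and sex of the embryos therefore cannot be told apart for any gene below.

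Of the 39 endothelial genes, 13 fell and 6 rose in KO hearts, taking as changed an adjusted p under 0.05 (edgeR's quasi-likelihood test, Benjamini-Hochberg adjustment). The background over all 13804 genes tested was 15.7% lower and 14.6% higher, or 30.3% in either direction, and the 19 called endothelial genes are 48.7% of 39. These shares were not matched for level, the median being 46.2 CPM for the 39 genes and 22.8 CPM for all genes tested. The changes were small. None of the 39 passed the threshold with a change of at least 1.5-fold, a mark that 6.19% of all genes reached. Log2 fold changes (KO minus WT) ran from -0.58 for *Esm1*, which did not pass the test, to 0.55 for *Egfl7*, with a median of -0.05 against 0.00 over all genes. In absolute size the median was 0.16 for the endothelial genes and 0.13 for all genes. The KO libraries lay below all WT libraries for 15 of the 39 genes and above them for 10, where 21.4% and 21.0% of all genes did so (42.4% in either direction), and the groups overlapped for 14. In RNA of unsorted tissue, fewer endothelial cells and less RNA of a gene per endothelial cell cannot be told apart. When counts were scaled by library totals alone, which moved the median of all genes to 0.05, 10 of the 39 were lower and 8 higher.

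**Figure D1:**
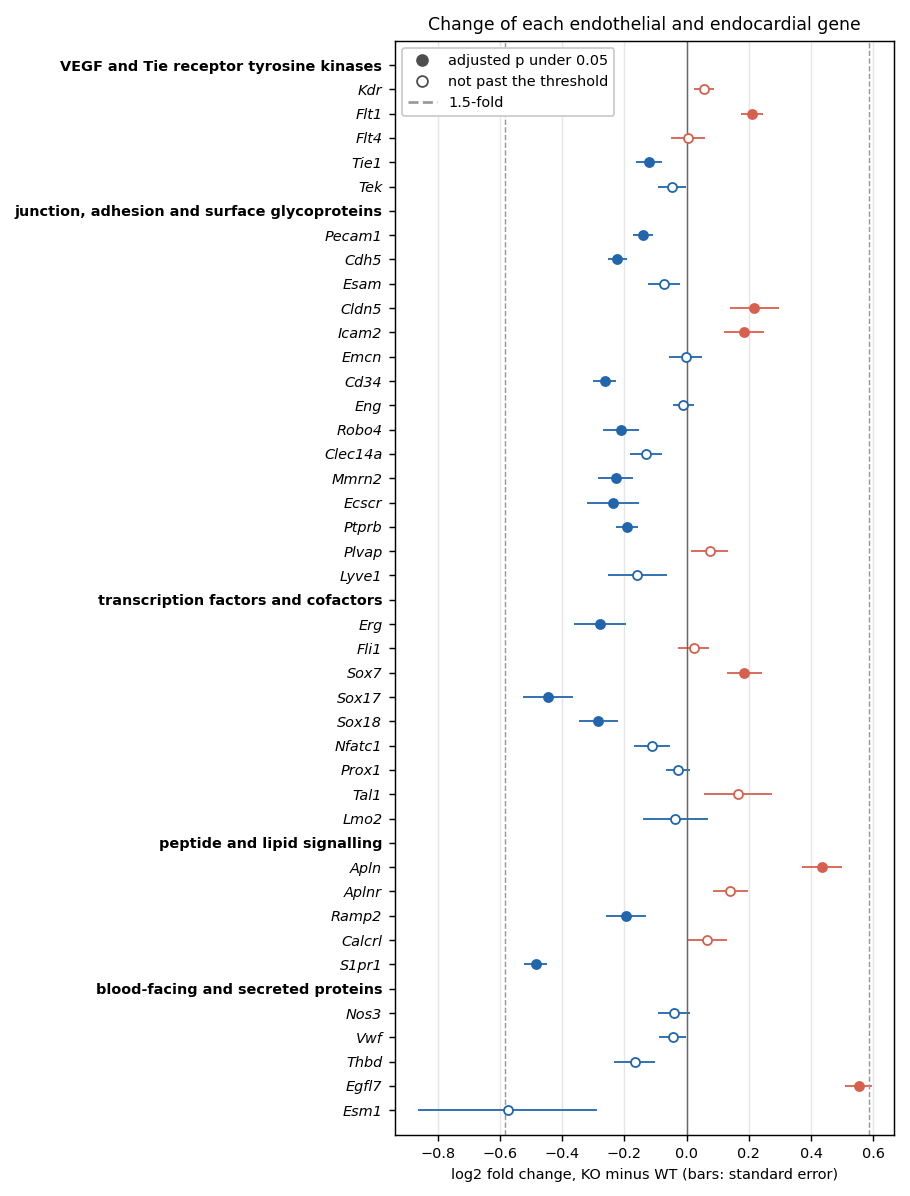
Log2 fold change (KO minus WT, horizontal axis) of the 39 endothelial and endocardial genes, grouped by role, with bars of 1 standard error, filled points for an adjusted p under 0.05 and dashed lines at 1.5-fold. The 13 filled points on the negative side and the 6 on the positive side all lie inside the dashed lines, with *S1pr1* (-0.49) and *Egfl7* (0.55) the outermost filled points.

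The spread between libraries was narrow. The coefficient of variation of a gene's CPM within a group had a median of 3.33% in WT and 3.02% in KO hearts. It was lowest for *Cd34* in WT (0.903%) and *Flt1* in KO (0.657%), and highest for *Esm1* in both groups (19.2% and 16.4%), the rarest of the 39. Near the threshold, *Icam2*, *Tie1*, *Ecscr* and *Cldn5* passed with adjusted p-values of 0.0288, 0.0299, 0.0313 and 0.0393, while *Thbd*, *Clec14a* and *Aplnr* stayed outside with 0.0547, 0.0554 and 0.0586.

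RefSeq promoter windows (GRCm38.p6) were matched to 18 of the 39 genes, in 24 windows of 250 bases before and 50 after a transcript start, and 21 genes had no entry. The 5 genes shown here are *Egfl7*, *Apln* and *Flt1*, which rose, and *Cd34* and *Robo4*, which fell. They are shown because their windows hold the sequence AGGAAG, a short form of the core that ETS factors such as ERG and FLI1 bind. Of the other genes past the threshold, *Erg* and *Tie1* also held it and are not printed. Capitals mark AGGAAG or its reverse complement in the 250 bases before each start, and each line runs 5′ to 3′ on the strand of the gene.
Egfl7, chr2:26580833-26581082, plus strand: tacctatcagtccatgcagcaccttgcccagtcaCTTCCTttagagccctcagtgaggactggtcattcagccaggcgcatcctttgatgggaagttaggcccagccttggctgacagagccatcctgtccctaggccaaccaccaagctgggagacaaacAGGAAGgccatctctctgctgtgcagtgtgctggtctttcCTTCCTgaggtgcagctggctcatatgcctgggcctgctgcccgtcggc
Egfl7, chr2:26583615-26583864, plus strand: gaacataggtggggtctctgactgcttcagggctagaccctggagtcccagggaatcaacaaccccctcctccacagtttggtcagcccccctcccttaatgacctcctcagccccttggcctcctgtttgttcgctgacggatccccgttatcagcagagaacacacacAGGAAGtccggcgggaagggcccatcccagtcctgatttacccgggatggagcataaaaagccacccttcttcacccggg
Egfl7, chr2:26586386-26586635, plus strand: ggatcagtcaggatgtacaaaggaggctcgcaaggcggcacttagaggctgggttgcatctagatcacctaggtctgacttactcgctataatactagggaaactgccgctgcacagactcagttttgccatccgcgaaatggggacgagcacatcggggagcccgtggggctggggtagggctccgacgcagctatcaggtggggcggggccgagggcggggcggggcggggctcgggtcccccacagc
Apln, chrX:48034854-48035103, minus strand: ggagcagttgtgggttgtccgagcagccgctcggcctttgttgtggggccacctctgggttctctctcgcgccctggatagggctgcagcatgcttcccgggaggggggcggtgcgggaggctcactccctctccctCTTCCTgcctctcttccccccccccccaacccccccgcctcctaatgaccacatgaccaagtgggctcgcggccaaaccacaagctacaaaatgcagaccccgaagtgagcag
Flt1, chr5:147726012-147726261, minus strand: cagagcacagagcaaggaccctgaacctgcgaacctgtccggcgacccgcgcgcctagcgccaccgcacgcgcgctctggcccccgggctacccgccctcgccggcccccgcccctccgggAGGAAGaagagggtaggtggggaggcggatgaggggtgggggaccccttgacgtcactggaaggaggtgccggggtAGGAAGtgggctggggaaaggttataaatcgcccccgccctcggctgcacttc
Cd34, chr1:194938571-194938820, plus strand: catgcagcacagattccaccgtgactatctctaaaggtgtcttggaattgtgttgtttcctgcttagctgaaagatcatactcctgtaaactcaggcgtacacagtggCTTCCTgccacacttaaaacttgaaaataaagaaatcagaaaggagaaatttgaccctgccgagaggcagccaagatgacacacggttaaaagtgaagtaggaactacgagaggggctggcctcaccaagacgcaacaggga
Robo4, chr9:37401722-37401971, plus strand: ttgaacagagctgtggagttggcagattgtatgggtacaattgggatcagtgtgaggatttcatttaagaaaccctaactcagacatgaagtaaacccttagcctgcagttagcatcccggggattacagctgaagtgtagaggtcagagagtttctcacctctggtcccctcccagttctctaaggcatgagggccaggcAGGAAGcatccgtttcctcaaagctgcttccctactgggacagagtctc
The matches lay 216, 89 and 49 bases before the first *Egfl7* start, 80 before the second and nowhere before the third. In the others they lay 113 bases before the start in *Apln*, 129 and 53 in *Flt1*, 142 in *Cd34* and 49 in *Robo4*. AGGAAG was found on either strand in 11 of the 24 windows (45.8%), which belong to 10 genes, and in 35.4% of all 32851 windows of the table. The longer core CCGGAAG, which does not contain AGGAAG but can share end bases with it, was in 0 of the 24 (8.86% of all windows), and so were the forkhead core GTAAACA (3.65%) and the SOX core ACAATGG (3.66%). The GATA core AGATAAG was in the windows of *Tek* and *Erg*, 2 of 24 windows (8.33%) against 3.04% of all. The KLF core GGGTGTG was in those of *Tie1* and *Clec14a*, again 2 of 24 against 7.95% of all. Genes that rose and genes that fell both held AGGAAG, and a match of letters does not show that a factor binds there.

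Among the 5 receptor tyrosine kinases, *Flt1* rose, *Tie1* fell and *Kdr*, *Flt4* and *Tek* did not pass the test. *Flt1* encodes VEGFR1, which binds VEGF-A tightly, signals weakly and is also made as a soluble decoy. It was at 144, 148 and 141 CPM in the WT libraries and at 167, 165 and 167 CPM in the KO libraries. Every KO library was above every WT library (log2 fold change 0.21, standard error 0.0355, adjusted p = 5.2e-05). *Kdr* encodes VEGFR2, the main signalling receptor for VEGF-A. Its level was 303, 306 and 294 CPM in WT and 307, 312 and 321 CPM in KO hearts. The KO libraries again lay above, by a smaller margin (log2 fold change 0.06, standard error 0.0311, adjusted p = 0.182). The ratio of *Flt1* to *Kdr* counts within a library was 0.478 ± 0.00396 (SD, n = 3) in WT and 0.532 ± 0.0125 in KO hearts, and the 2 groups did not overlap.

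*Tie1*, the co-receptor of the angiopoietin receptor, stood at 90.9, 92.9 and 93.5 CPM in WT and 83.1, 84.5 and 87.3 CPM in KO hearts. The KO libraries were all lower (log2 fold change -0.12, standard error 0.042, adjusted p = 0.0299), but the call was lost when WT b, KO a or KO b was left out (adjusted p = 0.0818, 0.128 and 0.0869). *Tek*, which encodes the angiopoietin receptor TIE2, overlapped between the groups (83.2 ± 1.78 CPM in WT and 80.5 ± 2.13 CPM in KO, adjusted p = 0.444). *Flt4*, the VEGF-C receptor of lymphatic and sprouting endothelium, was at 46.1 ± 1.89 CPM in the WT and 46.3 ± 1.71 CPM in the KO libraries (adjusted p = 0.964).

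Of the 15 junction, adhesion and surface genes, 7 fell, 2 rose and 6 did not pass the test, with a median log2 fold change of -0.14. *Cdh5*, which encodes VE-cadherin, was at 337, 345 and 352 CPM in WT and at 297, 301 and 288 CPM in KO hearts. The lowest WT library was well above the highest KO library, and the gene fell by 14.3% (log2 fold change -0.22, standard error 0.0308, adjusted p = 3.3e-06). *Pecam1*, the CD31 adhesion molecule of endothelial junctions, was at 203, 199 and 205 CPM in WT and 181, 184 and 186 CPM in KO hearts. Here too the groups were apart (log2 fold change -0.14, standard error 0.0332, adjusted p = 0.00196). *Ptprb* encodes VE-PTP, a phosphatase that acts on TIE2 and on the VE-cadherin complex. It gave 157, 155 and 152 CPM in WT and 137, 135 and 135 CPM in KO hearts. Its KO libraries lay together below the WT range (log2 fold change -0.19, standard error 0.0357, adjusted p = 0.000157).

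*Cd34*, a sialomucin of endothelial and progenitor cells, was at 159.6, 158 and 157 CPM in WT and 132, 135 and 129 CPM in KO hearts. The groups were far apart for their spread, and *Cd34* fell by 16.7% (log2 fold change -0.26, standard error 0.0361, adjusted p = 2.76e-06). *Mmrn2*, a matrix protein that binds the C-type lectin CLEC14A, stood at 48.9, 52.2 and 56.2 CPM in WT and 43.4, 46.1 and 44.8 CPM in KO hearts, with all KO libraries lower (log2 fold change -0.23, adjusted p = 0.00309). *Clec14a* itself was at 52.3 ± 1.09 CPM in the WT and 47.8 ± 0.379 CPM in the KO libraries, with the groups apart but the test just missed (log2 fold change -0.13, adjusted p = 0.0554). *Robo4*, an endothelial receptor of the Roundabout family, gave 42.5, 46.0 and 43.5 CPM in WT and 36.0, 39.5 and 38.8 CPM in KO hearts. It fell (log2 fold change -0.21, adjusted p = 0.00711) with no overlap, and the call was lost without WT b or KO a (adjusted p = 0.0538 and 0.0616). *Ecscr*, an endothelial surface protein, was at 18.4, 18.5 and 17.9 CPM in WT and 14.2, 16.9 and 15.6 CPM in KO hearts. Its KO libraries were lower and more spread (log2 fold change -0.24, adjusted p = 0.0313), and leaving out WT a, WT b, KO a or KO c ended the call (adjusted p = 0.0652, 0.0901, 0.172 and 0.0749).

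Both junction genes that rose encode small membrane proteins. *Cldn5* encodes the claudin of endothelial tight junctions. It was at 17.5, 17.5 and 20.6 CPM in WT and 21.2, 20.7 and 22.2 CPM in KO hearts. WT c came close to the KO libraries (log2 fold change 0.22, standard error 0.0795, adjusted p = 0.0393), and the call held in only 1 of the 6 fits with a library left out, that without WT c (the others gave adjusted p-values of 0.057 to 0.175). *Icam2*, a ligand for leukocyte integrins, was at 28.2, 29.5 and 26.7 CPM in WT and 32.5, 32.3 and 31.3 CPM in KO hearts. The groups were apart (log2 fold change 0.18, adjusted p = 0.0288), and the call was lost without WT a, WT c, KO a or KO b (adjusted p = 0.062, 0.0912, 0.0911 and 0.0762). The ratio of *Cldn5* to *Cdh5* counts went from 0.0537 ± 0.0042 in WT to 0.0725 ± 0.00435 in KO hearts (SD, n = 3 each), without overlap. This ratio combines the rise of *Cldn5* with the fall of *Cdh5* and is no separate result.

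Among the 6 that did not pass, *Eng*, which encodes the TGF-beta and BMP co-receptor endoglin, was at 246, 253 and 257 CPM in WT and 241, 252 and 258 CPM in KO hearts. Its groups interleaved (log2 fold change -0.01, adjusted p = 0.841). *Esam*, another junction adhesion molecule, was at 60.9, 56.1 and 58.1 CPM in WT and 54.2, 57.2 and 55.1 CPM in KO hearts (adjusted p = 0.298), also with overlap. *Emcn*, an endothelial sialomucin, was at 44.9 ± 1.08 CPM in the WT and 44.8 ± 0.559 CPM in the KO libraries (adjusted p = 0.964). Of the defining markers, *Emcn* was thus the 1 that did not pass, beside lower *Cdh5*, *Pecam1* and *Tie1*. *Plvap*, the protein of fenestral diaphragms, had KO libraries above the WT libraries (33.1 ± 0.488 CPM against 34.8 ± 0.485 CPM, adjusted p = 0.369). *Lyve1*, the hyaluronan receptor of lymphatic endothelium that macrophages also carry, overlapped (14.6 ± 0.602 CPM against 13.1 ± 1.56 CPM, adjusted p = 0.211).

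**Figure D2:**
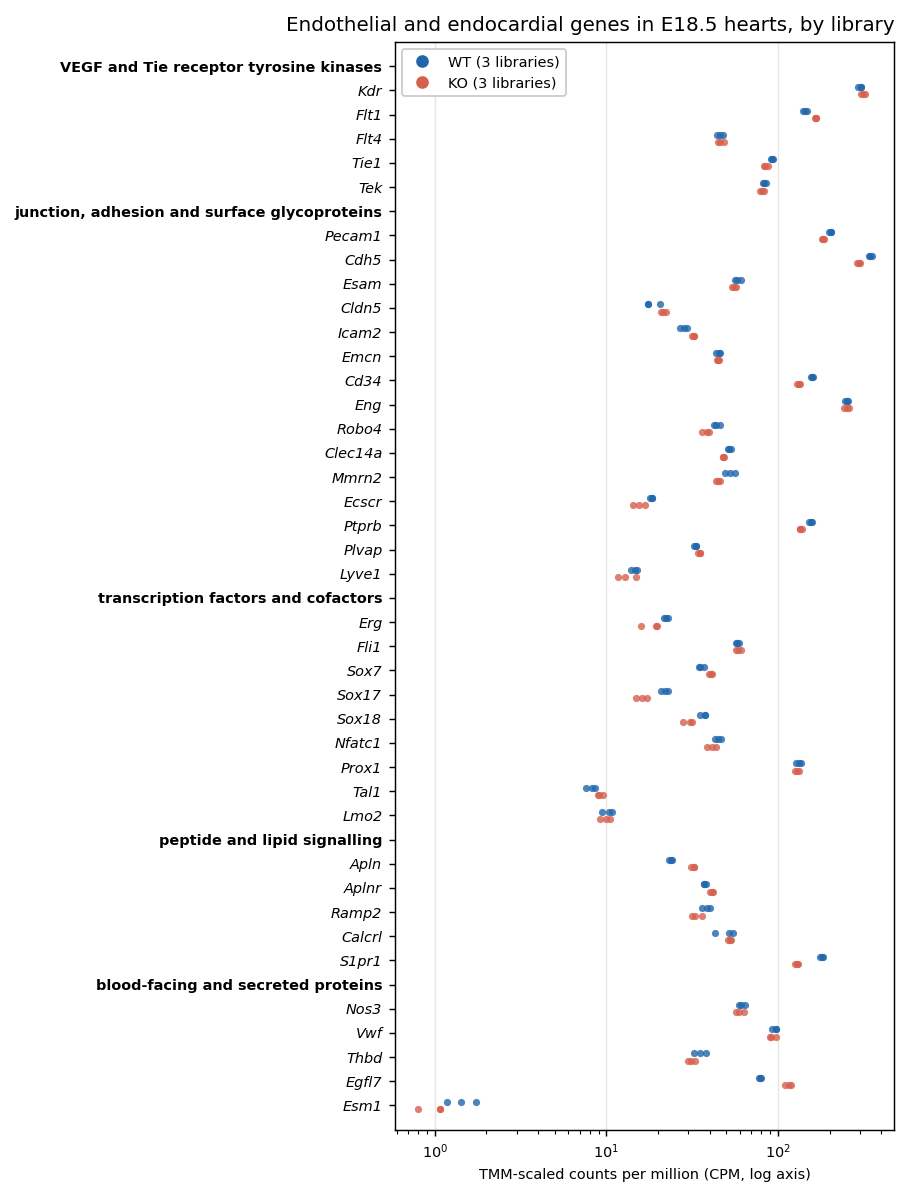
TMM-scaled CPM (log axis) of the 39 genes in each WT (blue) and KO (red) library, grouped by role. *S1pr1*, *Cd34* and *Cdh5* show KO points clearly left of the WT points, *Egfl7* and *Apln* show them to the right, and *Eng*, *Emcn* and *Prox1* show interleaved points.

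Of the 9 transcription factors and cofactors, 3 fell, 1 rose and 5 did not pass the test. The SoxF factors SOX7, SOX17 and SOX18 are close relatives that share target genes in endothelium, and all 3 of their genes passed, in different directions. *Sox17*, prominent in arterial endothelium, was at 22.9, 22.1 and 20.8 CPM in WT and 16.1, 14.9 and 17.3 CPM in KO hearts. No KO library reached the WT range, and the gene fell by 26.6% (log2 fold change -0.45, standard error 0.0795, adjusted p = 0.000104). *Sox18* stood at 35.0, 37.4 and 37.5 CPM in WT and 31.6, 27.8 and 30.7 CPM in KO hearts. It too fell with no overlap (log2 fold change -0.28, standard error 0.0635, adjusted p = 0.0012). *Sox7* was at 37.0, 35.2 and 34.7 CPM in WT and 39.5, 41.4 and 40.7 CPM in KO hearts. It rose with the groups apart (log2 fold change 0.19, standard error 0.0572, adjusted p = 0.0152), and the call was lost without WT b or KO b (adjusted p = 0.0605 and 0.0585).

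The ratio of *Sox7* to *Sox18* counts was 0.975 ± 0.0726 in WT and 1.36 ± 0.122 in KO hearts (SD, n = 3 each), with every KO library above every WT library. That of *Sox17* to *Sox18* overlapped (0.601 ± 0.0509 and 0.536 ± 0.0264). Together the 3 SoxF genes summed to 93.0 to 94.9 CPM in WT and 84.1 to 88.7 CPM in KO hearts.

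*Erg*, an ETS factor that maintains endothelial identity, was at 21.8, 22.1 and 23.0 CPM in WT and 19.6, 19.8 and 15.8 CPM in KO hearts. KO c lay well below the other KO libraries, and the fall of *Erg* (log2 fold change -0.28, adjusted p = 0.0117) did not pass without KO c (adjusted p = 0.119). *Fli1*, the related ETS factor also found in blood cells, overlapped (58.1 ± 1.41 CPM in WT and 58.9 ± 1.99 CPM in KO, adjusted p = 0.767). *Nfatc1*, a factor of the endocardium and of valve growth, was at 44.6 ± 1.76 CPM in the WT and 41.2 ± 2.28 CPM in the KO libraries, with overlap (adjusted p = 0.149). *Prox1*, the master regulator of lymphatic fate that cardiomyocytes also express, gave 132 ± 4.4 CPM and 129 ± 3.86 CPM (adjusted p = 0.635). *Tal1* and *Lmo2*, partners in a complex of endothelial and blood progenitors, were near 10 CPM or below and did not pass (adjusted p = 0.268 and 0.824), the KO libraries of *Tal1* lying above those of WT.

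The 5 genes of peptide and lipid signalling held the most significant fall and the second largest rise of the 39. *S1pr1* encodes the sphingosine 1-phosphate receptor that stabilises vessel walls and endothelial junctions. It was at 176, 181 and 183 CPM in WT and at 131, 129.7 and 125 CPM in KO hearts. The gap between the groups was several times the spread inside either, and *S1pr1* fell by 28.6% (log2 fold change -0.49, standard error 0.0361, adjusted p = 4e-11). *Apln* encodes apelin, a peptide of tip cells and coronary endothelium that acts through the receptor encoded by *Aplnr*. It was at 23.7, 24.2 and 23.1 CPM in WT and 32.5, 32.3 and 31.2 CPM in KO hearts. All KO libraries were higher, and *Apln* rose by 35.1% (log2 fold change 0.43, standard error 0.064, adjusted p = 8.25e-06). *Apln* lies on the X chromosome, where 48 of 477 genes tested (10.1%) were higher and 72 (15.1%) lower in KO hearts, and where sex bears on gene dosage.

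*Aplnr* was at 38.1, 37.0 and 37.0 CPM in WT and 42.0, 41.4 and 40.2 CPM in KO hearts. Its groups were apart in the same direction as *Apln*, and the test was narrowly missed (log2 fold change 0.14, standard error 0.0557, adjusted p = 0.0586). The ratio of *Apln* to *Aplnr* counts still went from 0.633 ± 0.0176 to 0.778 ± 0.00359 (SD, n = 3 each), without overlap. *Ramp2* and *Calcrl* encode the 2 subunits of the adrenomedullin receptor. *Ramp2* was at 36.1, 40.1 and 38.6 CPM in WT and 32.7, 31.4 and 36.1 CPM in KO hearts, so that KO c all but met WT a. It fell (log2 fold change -0.20, standard error 0.0639, adjusted p = 0.0216), and the call was lost without WT b, KO a or KO b (adjusted p = 0.117, 0.0879 and 0.117). *Calcrl* was lowest in WT c (51.5, 54.6 and 43.2 CPM in WT against 52.2, 53.4 and 51.4 CPM in KO) and did not pass (adjusted p = 0.472). The ratio of *Ramp2* to *Calcrl* overlapped between the groups.

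Of the 5 blood-facing and secreted proteins, *Egfl7* alone passed the test. *Egfl7* encodes a secreted protein that endothelial cells lay down in the vessel wall, and its gene hosts the endothelial microRNA miR-126. It was at 80.0, 78.1 and 77.9 CPM in WT and at 116, 110.4 and 119 CPM in KO hearts. The gap was far wider than the spread, and *Egfl7* rose by 46.6% (log2 fold change 0.55, standard error 0.0423, adjusted p = 7.2e-11). The ratio of *Egfl7* to *Cdh5* counts, both genes being largely endothelial, was 0.228 ± 0.00803 in WT and 0.391 ± 0.0243 in KO hearts (SD, n = 3 each), 1.71 times as high. It combines the rise of *Egfl7* with the fall of *Cdh5*.

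The other 4 of this role did not pass. *Nos3*, the endothelial nitric oxide synthase gene, was at 61.4 ± 2.62 CPM in the WT and 59.6 ± 3.27 CPM in the KO libraries, and *Vwf*, which encodes the clotting protein von Willebrand factor, at 95.6 ± 3.29 CPM and 92.8 ± 3.82 CPM (adjusted p = 0.596 and 0.478). *Thbd*, which encodes the anticoagulant receptor thrombomodulin, was at 35.1 ± 2.86 CPM and 31.3 ± 1.29 CPM, with overlap (adjusted p = 0.0547). *Esm1*, a proteoglycan of tip cells, had KO libraries below the WT libraries but only 1.45 ± 0.278 CPM in the WT and 0.981 ± 0.161 CPM in the KO libraries (adjusted p = 0.135).

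**Figure D3:**
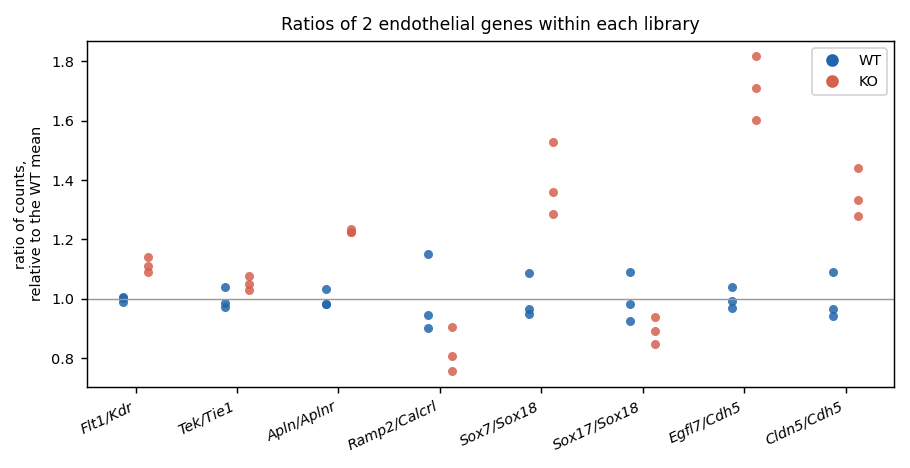
Ratio of the counts of 2 endothelial genes within each library, divided by the WT mean (vertical axis), for 8 pairs, with WT in blue and KO in red. *Egfl7*/*Cdh5* (1.71 times the WT mean), *Sox7*/*Sox18* (1.39 times) and *Cldn5*/*Cdh5* (1.35 times) lie apart from WT, while *Tek*/*Tie1*, *Ramp2*/*Calcrl* and *Sox17*/*Sox18* overlap with it. The denominators *Cdh5* and *Sox18* themselves fell.

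Several of the 39 share exon bases with a neighbour, and the sources used here do not say whether reads were counted by strand. The exons of *Egfl7* share 64 of 3581 bases with *Agpat2* on the opposite strand, and *Agpat2* was also higher (log2 fold change 0.54, 15.7 CPM in WT and 22.9 CPM in KO). They also share 264 bases with the protein-coding gene *Gm20532* on the same strand, 73 with *Mir126a* and 58 with *Mir126b*, none of which was in the table. The overlap of *Ramp2* with *Vps25* is longer, 1103 of 3301 bases on the same strand, and *Vps25* was at a log2 fold change of -0.14 (adjusted p = 0.1). *Cd34* shares 148 of 7290 bases with the antisense gene *Gm16897* (log2 fold change -0.33, adjusted p = 0.068) and *Sox17* 804 of 4772 with *Gm37587*, which was not in the table. Also with an overlap of exons were *Nos3* (1040 bases with *Gm15587* and 294 with *Atg9b*), *Prox1* (133 with *Prox1os*), *Ecscr* (62) and *Eng* (61 with *Fpgs*). For these genes the values are less certain to the extent that reads fell in the shared bases.

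Per kilobase of annotated exon, the levels in WT hearts were highest for *Cdh5* (82.0 CPM per kilobase), *Eng* (62.3), *S1pr1* (59.1), *Kdr* (33.3) and *Pecam1* (32.5), and lowest for *Esm1* (0.691). In KO hearts the levels per kilobase were 70.2 for *Cdh5*, 61.8 for *Eng*, 42.2 for *S1pr1*, 34.7 for *Kdr* and 29.5 for *Pecam1*, with *Egfl7*, at 22.0 in WT, reaching 32.2 and so passing *Pecam1*. Summed over the 39 genes, the level was 3106 to 3124 CPM in WT and 2964 to 2992 CPM in KO hearts, or 95.6% of WT. Leaving out genes chosen after their values were seen moved this share to 98.6% without *Cdh5* and *S1pr1*, 94.3% without *Egfl7* and 97.1% without all 3. With TMM scaling the KO sums stayed below the WT sums each time. Without *Cdh5* and *S1pr1* this was only just so (2580 to 2599 CPM in WT, 2536 to 2579 CPM in KO). The TMM factors, 0.976 to 0.989 in WT and 1.016 to 1.017 in KO, raise the WT sums and lower the KO sums. Sums scaled by library totals alone were not computed, so the order of the groups holds for TMM scaling only. By role, the sum was 91.0% of WT for junction and surface genes and 87.4% for peptide and lipid signalling, and it was 104% for the receptor kinases and 110% for the blood-facing proteins. A single gene set the direction for 2 of these roles, since without *S1pr1* the peptide and lipid genes summed to 107% of WT and without *Egfl7* the blood-facing genes summed to 95.4%, with overlap between the groups.

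Genes outside the 39 that belong to the same pathways were counted in lists, some of which share genes. For these and for the marker lists below, the background over all genes tested was 15.7% lower and 14.6% higher, or 30.3% in either direction. The first list held VEGF and angiopoietin ligands and co-receptors, and also other genes, among them *Angptl2*, *Angptl4*, *Adm* and the transcription factor gene *Epas1*. In it 3 of 14 fell and 5 rose, with a median log2 fold change of 0.12. The 3 that fell were *Angpt1*, *Angptl2* (-0.20) and *Epas1* (-0.27), which is also counted with the transcription factors below. *Vegfa*, the ligand of *Kdr* and *Flt1*, was at 354, 373 and 363 CPM in WT and 541, 534 and 533 CPM in KO hearts. It was higher in every KO library (log2 fold change 0.56, adjusted p = 1.21e-14), as were *Angptl4* (0.96), a lipase inhibitor, and *Adm* (0.59), which encodes adrenomedullin, the peptide that binds the receptor of *Calcrl* and *Ramp2*. *Angpt1*, the activating ligand of TIE2, fell (log2 fold change -0.49, adjusted p = 9.96e-05), while *Angpt2* did not pass (0.12, adjusted p = 0.393). The ratio of *Angpt1* to *Angpt2* counts was 1.83 ± 0.161 in WT and 1.19 ± 0.0575 in KO hearts (SD, n = 3 each), without overlap. In the wider apelin, calcitonin and sphingosine list, 5 of 14 rose and 0 fell (median 0.05), led by *Adm*, *Crcp* (0.37), *S1pr2* (0.30), a second receptor for sphingosine 1-phosphate, and *Rapgef3* (0.22), a cAMP sensor.

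Of 31 other pan-endothelial genes tested, 11 fell and 3 rose, with a median log2 fold change of -0.08. The largest changes were those of *Gimap6* (-0.63), *Palmd* (-0.56), *Ehd4* (-0.34) and *Heg1* (-0.31), the receptor that ties endothelial junctions to the CCM complex. The summed level of this list was 2920 to 2952 CPM in WT and 2686 to 2692 CPM in KO hearts. Of the 21 nitric oxide, thrombosis and barrier genes tested, 9 fell and 2 rose (median -0.09), among them the junction genes *Ocln* (-0.69) and *Jam2* (-0.42), which were lower, and the X-linked clotting factor gene *F8* (0.35), which was higher. Among 14 endocardial and valve genes, 4 fell and 4 rose (median -0.02). *Edn1*, which encodes endothelin 1, fell most (-1.15), along with *Postn* (-0.32), a matrix gene that fibroblasts also express, while *Hapln1* (0.87) and *Nrg1* (0.60), the endocardial ligand of ERBB receptors on cardiomyocytes, rose. *Hapln1* was rare, at 1.37 ± 0.602 CPM in the WT and 2.60 ± 0.291 CPM in the KO libraries.

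**Figure D4:**
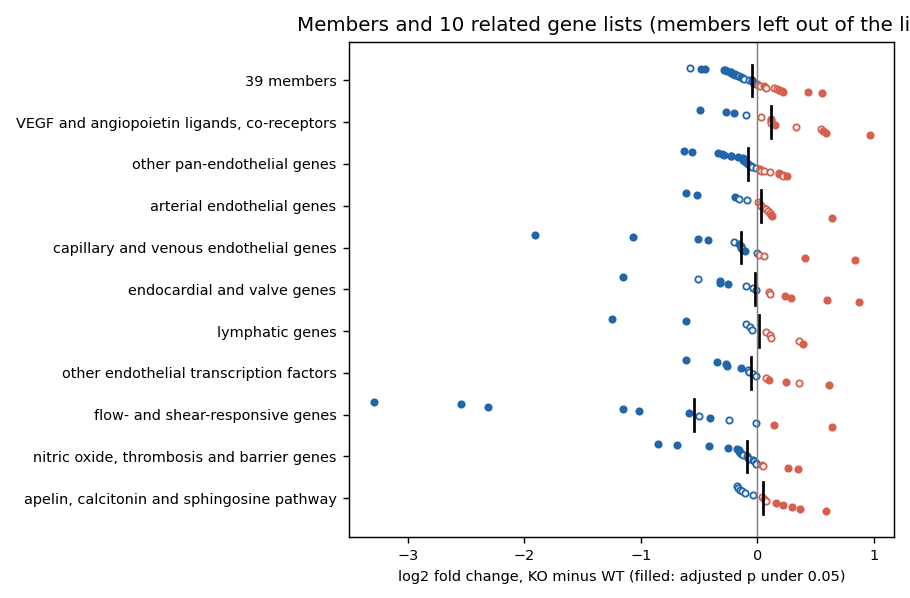
Log2 fold change (KO minus WT, horizontal axis) of the 39 genes and of the genes of 10 related lists, 1 point per gene, filled for an adjusted p under 0.05, with a bar at each median. The 39 genes lie between -0.58 and 0.55, whereas the flow-responsive and the capillary and venous lists reach -3.29 (*Ctgf*) and -1.91 (*Timp4*).

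Other cell types and states moved with genotype, as did the share of counts on the ribosomal RNA gene *Rn45s* (2.21% to 2.48% in WT, 2.70% to 2.79% in KO), and their part in the results was not tested. Of the pericyte markers, 6 of 12 fell and 0 rose, and their sum was 1811 to 1881 CPM in WT and 1609 to 1639 CPM in KO hearts. *Des* (843 CPM in WT and 720 CPM in KO, log2 fold change -0.23) and *Abcc9* (494 and 442 CPM, -0.16) made up most of this sum. Which cells of the heart their transcripts came from was not tested. The pericyte markers that changed most were *Anpep* (-0.30) and *Rgs5* (-0.27). Of the ventricular cardiomyocyte markers, 10 of 12 fell and 2 rose (*Ttn* -0.05, *Myh7* 0.05, *Myh6* -0.46, *Ryr2* -0.31), with sums of 145818 to 149571 CPM and 137763 to 139035 CPM. Fibroblast markers fell in 6 of 11 and rose in 0 (*Col3a1* -0.07, *Mfap5* -0.60, *Dpt* -0.54, and *Col1a1* not past at -0.03), with sums of 4263 to 4300 CPM in WT and 3957 to 4034 CPM in KO hearts.

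Atrial markers rose in 3 of 9 and fell in 0 (*Nppa* 0.68, *Myl4* 1.10, *Myl7* 0.75), and their sum was 659 to 667 CPM in WT and 1071 to 1094 CPM in KO hearts. The other 6 did not pass, and the median log2 fold change of the list was 0.02, with 4 genes negative and 5 positive. Epicardial markers rose in 4 of 9 and fell in 0 (*Krt19* 0.59, *Wt1* 0.34, *Lrrn4* 0.34, and *Tbx18* not past at 0.12), from 159 to 162 CPM in WT and 178 to 189 CPM in KO hearts. Of the erythroid markers 4 of 13 were in the table, with no globin gene among them, and *Tfrc* (0.72) and *Alas2* (0.30) rose while *Slc4a1* fell (-0.53), with sums of 158 to 177 CPM and 255 to 267 CPM. All 14 immediate early genes fell (*Jun* -1.17, *Nr4a1* -2.47, *Fos* -4.02, *Atf3* -3.12), from 926 to 1009 CPM in WT to 265 to 270 CPM in KO hearts. Macrophages and platelets share some transcripts with endothelium, and the summed levels of their markers overlapped between the groups. The summed macrophage markers were at 73.4 to 79.0 CPM in WT and 72.8 to 79.5 CPM in KO hearts, with 2 of 12 lower (*C1qa* -0.78 and *C1qc* -0.64), 0 higher and the abundant *Mrc1* (0.17) and *Csf1r* (0.14) not past. The platelet and megakaryocyte markers summed to 24.4 to 28.1 CPM and 25.9 to 29.0 CPM, with *Gp1ba* higher (0.61) and *Itgb3* (-0.10) not past among the 5 of 10 in the table.

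**Figure D5:**
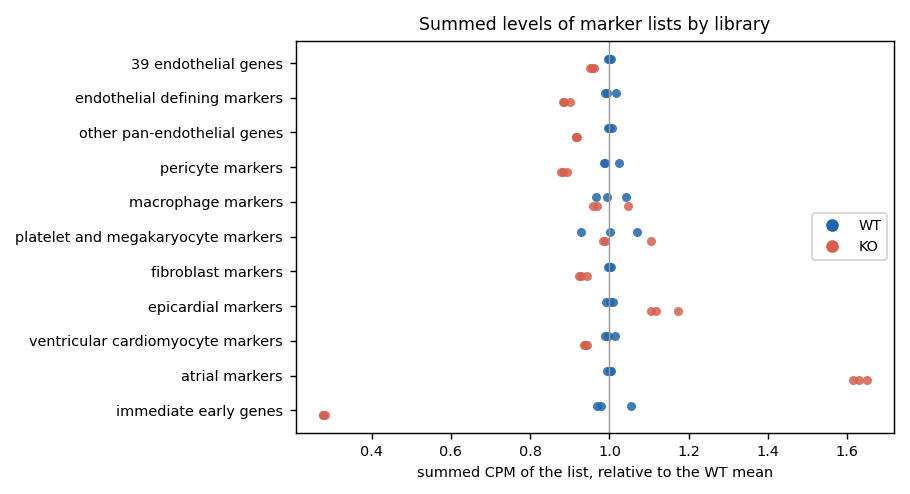
Summed TMM-scaled CPM of the 39 genes and of marker lists in each library, divided by the WT mean (horizontal axis), with WT in blue and KO in red. The 39 genes (95.6% of WT on average) lie below WT, as do the endothelial defining markers among them (88.9%). Pericyte markers (88.4%), whose sum rests mainly on *Des* and *Abcc9*, also lie below it. Atrial markers (163%), of which 3 of 9 rose and 6 did not pass, lie above WT and immediate early genes (27.9%) far below it.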

How the data were processed

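Total RNA depleted of ribosomal RNA was sequenced from 3 WT and 3 *Pkm1*-KO hearts at E18.5. The submitters' processing notes name cutadapt 1.18, HISAT2, StringTie and the mm10 build. Per the file headers, the authors gave unnormalised counts for each gene symbol in each of the 6 libraries, and beside these they deposited their own comparison of KO with WT (log2 fold change, log CPM, p-value and FDR), which was not used here. The counting program, annotation, filter and strand setting are not given in the sources used here. The columns carry no replicate number, so libraries are named a to c in column order. All replicate pairs differed by more than sampling noise (chi-square over genes), so none was merged. The chi-square per degree of freedom was 1.56 to 3.76 for WT pairs and 1.62 to 1.88 for KO pairs. Such a test does not show whether the libraries came from separate embryos.

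KO was compared with WT in edgeR 4.0.16 (R 4.3.3): filterByExpr by genotype kept 13804 of 13809 genes, TMM factors were applied, and glmQLFit and glmQLFTest were run on genotype, with no covariate. Benjamini-Hochberg adjustment covered every gene tested. A gene was called at an adjusted p under 0.05, and a 1.5-fold change was counted as well. Standard errors are on the log2 scale, and SDs are over 3 libraries. The limit of detection covers counting error only. Overlaps and exon lengths come from the GRCm38 annotation, with each gene's exons joined. Plots used matplotlib 3.10.9 (Python 3.11.15).

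The 39 genes, the lists and the tests were chosen with earlier results of these data known. All 39 are reported, with values per library for those past the threshold and the 3 most abundant others per kilobase, and also for *Aplnr* and *Calcrl*, beside their partners *Apln* and *Ramp2*. Named from each related list were up to 4 genes past the threshold with the largest changes, and from each marker list the 2 most abundant and 2 most changed. The values of 1 gene that this rule names are not reported here. *Angpt2*, and *Klf2* and *Klf4* in the closing section, were named after their values were seen, as was the shorter ETS core AGGAAG. Alternatives were RLE factors, TMM without *Rn45s*, library totals, DESeq2 1.42.0, the exact and the likelihood ratio test of edgeR, voom of limma 3.58.1, no filter, 10 counts in every library, X and Y genes left out, WT a and WT b summed, and each library left out. The fit was tested on simulated data of 13804 genes, 200 of them changed. It recovered 121 of the 200 at 1.25-fold and 172 at 1.5-fold, with 11 and 14 false calls, and made 0 false calls when no gene was changed. Changes smaller than 1.25-fold were not simulated, so a gene that did not pass may still have changed by a small amount.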

Additional observations from a re-analysis of the deposited data

How the results depend on the processing

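Of the 19 calls, 11 held in every alternative that could be computed (*Flt1*, *Pecam1*, *Cdh5*, *Cd34*, *Mmrn2*, *Ptprb*, *Sox17*, *Sox18*, *Apln*, *S1pr1* and *Egfl7*; *Apln* has no value with X and Y genes left out), and no called gene changed direction. With each library left out, lower calls numbered 9 to 14 and higher calls 3 to 5, the fewest higher without KO b. DESeq2 gave 10 lower and 3 higher. It lost *Tie1*, *Cldn5*, *Icam2*, *Ecscr*, *Sox7* and *Ramp2*, and over all genes it called 1639 lower and 1362 higher. Library totals alone lost *Tie1*, *Ecscr* and *Ramp2*, and over all genes gave 1527 lower and 2911 higher. Summing WT a and WT b lost *Cldn5* and *Ecscr*. *Kdr*, *Clec14a*, *Aplnr* and *Thbd* gained a call under at least 1 alternative, among them *Thbd* without WT c (adjusted p = 0.00568). The median log2 fold change of the 39 genes was 0.000278 under library totals, -0.0594 with X and Y genes left out, and -0.0952 to -0.0307 with a library left out. The cause of these moves was not tested. Uncalled genes that turned positive under library totals were *Tek* (0.000278), *Emcn* (0.0436), *Eng* (0.0371), *Prox1* (0.0201), *Lmo2* (0.0106), *Nos3* (0.0065) and *Vwf* (0.0031). With a library left out, log2 fold changes ran from -0.0263 to 0.0355 for *Flt4*, -0.0265 to 0.00947 for *Emcn*, -0.0328 to 0.0157 for *Eng*, -0.00517 to 0.042 for *Fli1*, -0.0952 to 0.0174 for *Lmo2* and -0.0235 to 0.137 for *Calcrl*. Depth limited *Esm1* most, with a standard error of 0.289, the largest of the 39. No paired analysis was possible because the table's columns name genotypes without numbering the replicates.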

Other observations

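The lists of endothelial subtypes were not tested against each other. Their summed levels in KO hearts were 99.4% of WT for arterial, 83.6% for capillary and venous, 85.8% for endocardial and valve, and 99.2% for lymphatic genes. Which cells of the heart these transcripts came from was not tested. Sums without the most abundant genes of each list were not computed. Of 15 arterial genes, 3 fell and 2 rose (median log2 fold change 0.03), or 33.3%, near the 30.3% of all genes tested. The Notch target *Hey1* (-0.61), the semaphorin gene *Sema3g* (-0.52) and *Efnb2* (-0.19), which encodes the arterial ligand ephrin B2, fell, while the connexin 37 gene *Gja4* rose (0.64). Of 15 capillary and venous genes tested, 6 fell and 2 rose (median -0.14). *Timp4* (-1.91), *Car4* (-1.07) and *Lpl* (-0.51), which encodes the lipase that capillaries display, fell, and *Ackr3* (0.84), a scavenging chemokine receptor, rose. *Timp4* was at 2.54 ± 0.211 CPM in the WT and 0.669 ± 0.0902 CPM in the KO libraries (SD, n = 3 each). Also rare was *Car4*, at 2.13 ± 0.373 CPM in the WT and 1.01 ± 0.137 CPM in the KO libraries. Lymphatic genes fell in 2 of 10 and rose in 1 (median 0.01), with *Ccbe1* (-1.24) and *Gata2* (-0.61) lower and *Pdpn* (0.39) higher. That is 30.0% of the list, near the 30.3% of all genes tested. *Ccbe1* was rare, at 1.79 ± 0.293 CPM in the WT and 0.75 ± 0.049 CPM in the KO libraries.

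Of the flow- and shear-responsive genes, 9 of 17 fell and 2 rose (median -0.24), counting 5 of the 39 genes that it shares. *Ctgf* (-3.29), *Cyr61* (-2.54), *Adamts1* (-2.31) and *Edn1* (-1.15) fell most. *Ctgf* was at 1228 CPM in the WT and 125 CPM in the KO libraries. The shear-induced factors *Klf4* and *Klf2* were also lower, at log2 fold changes of -1.01 and -0.58, with no overlap between the groups. All 14 immediate early genes fell in the same libraries, and other cells of the heart express many of the flow-responsive genes. Of 14 other endothelial transcription factors tested, 5 fell and 3 rose (median -0.06), with *Gata2*, *Bcl6b* (-0.35) and the hypoxia-inducible factor gene *Epas1* (-0.27) lower and *Hhex* (0.62) higher.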
